A study of Rattus norvegicus with 6 samples.

Results

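T cell and natural killer (NK) cell genes were measured in the injured rat spinal cord, in 6 libraries from the centre of a contusion lesion at the T9 segment. The Piezo Gel+US group (n = 3) received ultrasound together with a piezoelectric gel, a material that turns mechanical strain into electrical charge, and the Gel+US group (n = 3) received the same ultrasound with a gel that is not labelled piezoelectric. All animals are labelled wild type and all were injured, and ultrasound was given to both groups at 100 Hz and 1.0 W/cm2 for 10 min a day over 4 weeks. Strain, age and sex are not given in the sources used here. Each library came from about 5 mm3 of mixed lesion tissue, so a lower level can mean fewer cells of a type or less RNA in each cell, and the counts cannot tell these apart. The genes were chosen by name from a list of 38 symbols, and 35 of the 33455 rows of the count table carry one of them. Zap70, Gzmb and Klrd1 had no row under their symbol. Of the 35 genes, 27 had enough counts to be tested between the groups.

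T cells recognise peptide antigen with a receptor whose antigen-binding chains cannot signal alone and depend on the CD3 chains. The co-receptors CD4 and CD8 bring the kinase LCK to the engaged receptor, LCK phosphorylates the CD3 tails, and ZAP-70 and the adaptors LAT and SLP-76 carry the signal on. Cytotoxic T cells and NK cells kill with perforin and granzymes. After a contusion of the cord, lymphocytes enter the lesion from blood in small numbers beside far more macrophages and microglia.

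Levels are given as CPM, counts scaled to library totals adjusted by TMM, where 1 count equals 0.0501 to 0.0555 CPM. Total counts ran from 17212653 to 21436820 per library. The libraries stood apart in tissue makeup as well as in lymphocyte genes. Summed markers of Schwann cells, the myelinating cells of peripheral nerve, were highest in Piezo Gel+US replicate 2 at 95095 CPM, neuronal markers were highest in Gel+US replicate 3 at 19661 CPM, and fibroblast markers were highest in Gel+US replicate 2 at 6899 CPM. The neuronal and oligodendrocyte markers were present in every library, as the tissue label implies.

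The T and NK cell genes varied widely between libraries, with 1 library of the Gel+US group above all others. Their summed level was 192, 77.5 and 106 CPM in Piezo Gel+US replicates 1 to 3, against 136, 376 and 58.0 CPM in Gel+US replicates 1 to 3. The Gel+US group held both the highest and the lowest library, and the Piezo Gel+US libraries lay between them. Gel+US replicate 2 had the highest level of 25 of the 27 tested genes (92.6%), where 19% of all 17066 tested genes were highest in that library. Gel+US replicate 3 had the lowest level of 15 of the 27 (55.6%), against 26.5% of all tested genes. Of the 27 genes, 14 had both features (51.9%), against 9.75% of all tested genes. Because Cd4 made up much of the sum, it was also taken without that gene, giving 127, 52.8 and 64.5 CPM in Piezo Gel+US and 71.7, 264 and 25.0 CPM in Gel+US. The order of the libraries at the top and bottom was the same without Cd4.

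**Figure D1:**
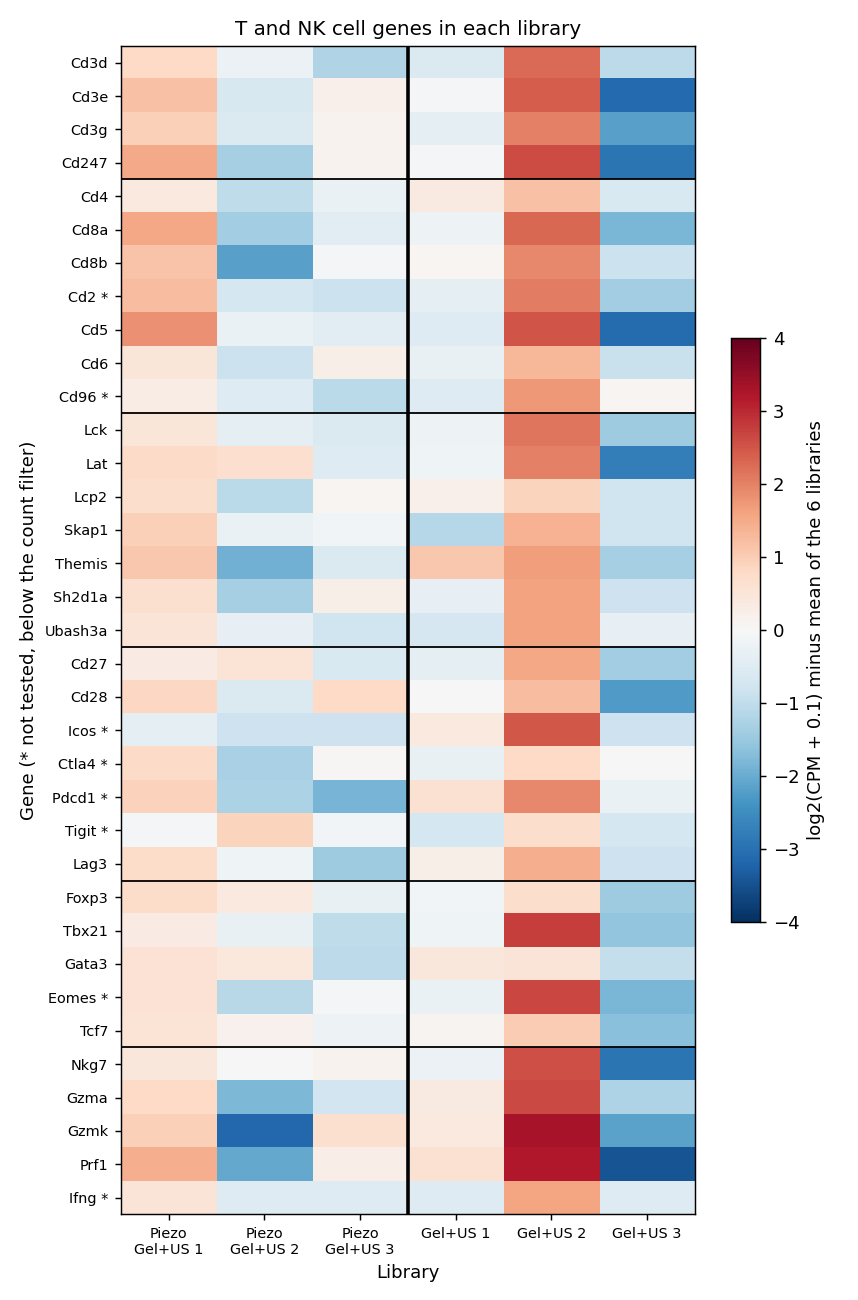
Level of each of the 35 T and NK cell genes in each library, as log2(CPM + 0.1) minus the gene's mean of the 6 libraries (colour scale), with the 3 Piezo Gel+US libraries on the left and the 3 Gel+US libraries on the right. Black lines divide the gene groups in the order CD3 chains, co-receptors and adhesion receptors, proximal signalling, costimulation and checkpoint, transcription factors, and cytotoxic and NK effectors, and the column of Gel+US replicate 2 is the highest for 25 of the 27 tested genes.

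The CD3 chains transmit the signal of the T cell receptor. Cd3e, the epsilon chain, measured 5.76, 1.56 and 2.85 CPM in Piezo Gel+US replicates 1 to 3, against 2.35, 13.7 and 0.200 CPM in Gel+US replicates 1 to 3. Cd247, the zeta chain, which carries the most phosphorylation motifs of the complex, measured 3.15, 0.352 and 1.14 CPM in Piezo Gel+US and 1.00, 6.72 and 0.0501 CPM in Gel+US, where the last value rests on 1 count. For both genes Gel+US replicate 2 was the highest library, Piezo Gel+US replicate 1 the next and Gel+US replicate 3 the lowest, so the groups overlapped. Cd3g, the gamma chain, measured 2.08, 0.654 and 1.14 CPM in Piezo Gel+US and 0.752, 4.39 and 0.150 CPM in Gel+US. Cd3d, the delta chain, measured 1.33, 0.604 and 0.259 CPM in Piezo Gel+US and 0.451, 3.89 and 0.301 CPM in Gel+US. Cd3d was lowest in Piezo Gel+US replicate 3, where the other chains were lowest in Gel+US replicate 3. Summed over the 4 chains, the level was 12.3, 3.17 and 5.38 CPM in Piezo Gel+US and 4.56, 28.7 and 0.702 CPM in Gel+US.

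Cd3g and Cd3d lie head to head in the deposited table, Cd3g at 39504046 to 39509907 on the minus strand and Cd3d at 39511288 to 39515901 on the plus strand of the same sequence, 1.38 kb apart. Cd3e follows 10.4 kb further on, at 39526297 to 39537391 on the minus strand. The build of these positions is not named in the sources used here, and no gene ID of the table occurred in the Norway rat table of GRCr8 (0 matches). Whether the reads were aligned to the Norway rat or to another rat species is therefore not settled, and these positions and gaps are those of the table alone. Other neighbours among the genes studied were Cd8b and Cd8a (36.8 kb apart), Gzmk and Gzma (88.1 kb), Cd5 and Cd6 (61.4 kb), Lag3 and Cd4 (25.2 kb), and Cd28, Ctla4 and Icos (gaps of 125 and 47.7 kb).

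The promoters of a pair of CD3 chains and of a pair of cytotoxic genes are shown, taken from RefSeq for the Norway rat assembly GRCr8. Each runs 5′ to 3′ from 250 bases before to 50 bases after the annotated start. Capitals mark the letters TGTGGT (RUNX motif), AGGAAG (ETS motif) and CAGCTG (E-box), searched on both strands. The windows are chr8:54211721-54212020 on the minus strand for Cd3e, chr8:54185269-54185568 on the plus strand for Cd3d, chr20:29788790-29789089 on the plus strand for Prf1 and chr2:46581966-46582265 on the minus strand for Gzmk.
Cd3e: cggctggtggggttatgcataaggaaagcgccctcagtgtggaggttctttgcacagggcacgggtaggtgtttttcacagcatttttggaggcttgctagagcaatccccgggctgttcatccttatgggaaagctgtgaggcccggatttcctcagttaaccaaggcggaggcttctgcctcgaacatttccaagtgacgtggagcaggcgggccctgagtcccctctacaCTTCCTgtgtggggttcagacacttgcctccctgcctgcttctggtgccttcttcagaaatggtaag
Cd3d: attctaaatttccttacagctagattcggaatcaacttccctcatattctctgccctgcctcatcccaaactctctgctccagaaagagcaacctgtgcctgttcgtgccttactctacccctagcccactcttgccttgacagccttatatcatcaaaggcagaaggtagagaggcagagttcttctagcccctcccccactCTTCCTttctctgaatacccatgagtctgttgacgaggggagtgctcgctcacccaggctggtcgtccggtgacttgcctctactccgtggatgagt
Prf1: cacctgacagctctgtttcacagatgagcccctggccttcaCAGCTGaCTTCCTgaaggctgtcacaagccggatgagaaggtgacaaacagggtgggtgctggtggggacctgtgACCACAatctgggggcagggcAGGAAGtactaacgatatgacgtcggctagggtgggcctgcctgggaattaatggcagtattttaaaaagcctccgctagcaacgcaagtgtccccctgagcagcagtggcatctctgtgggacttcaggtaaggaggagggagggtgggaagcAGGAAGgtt
Gzmk: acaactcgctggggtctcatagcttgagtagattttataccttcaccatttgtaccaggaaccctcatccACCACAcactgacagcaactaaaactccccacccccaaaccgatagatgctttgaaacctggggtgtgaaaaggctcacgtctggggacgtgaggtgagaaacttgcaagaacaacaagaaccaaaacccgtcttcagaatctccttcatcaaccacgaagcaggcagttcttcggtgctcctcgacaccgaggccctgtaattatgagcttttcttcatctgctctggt
Cd3e and Cd3d each held a single ETS match and no RUNX or E-box match in this window. Prf1, the perforin gene, held matches of all 3 motifs, and Gzmk held a RUNX match alone. Promoter windows were found for 29 of the 35 genes, 30 windows in all because Lck has a distal and a proximal start. The RUNX letters occurred in 12 of the 30 windows (40%), against 17.3% of all 33469 windows in the table. The E-box letters occurred in 12 of 30 (40%), against 15.1% of all windows, and the ETS letters in 15 of 30 (50%), against 34.5%. Other letters searched on both strands were those of GATA factors, written AGATAA, in 4 of 30 windows (13.3%), against 11.6% of all. The TCF/LEF letters CTTTGAT occurred in 3 (10%), against 3.63%, and the letters TATAAA of the core promoter box in 6 (20%), against 14.2%. The T-box letters AGGTGTG and the cAMP response element TGACGTCA occurred in 0 of 30, against 5.61% and 1.83% of all windows. No capital stretch in the 4 windows overlaps another. A match is a description of these letters and not a measured binding site. The part of promoter sequence in the levels of these genes was not tested.

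Among the co-receptors, Cd4 was by far the most abundant of the 35 genes. Per length it averaged 19.4 CPM per kilobase of gene over the 6 libraries, against 5.45 for Tcf7, the next in order on that scale. In the rat CD4 is carried by monocytes, macrophages and microglia as well as by helper T cells. Cd4 measured 65.8, 24.7 and 41.4 CPM in Piezo Gel+US replicates 1 to 3 and 63.8, 112 and 33.0 CPM in Gel+US replicates 1 to 3. Its spread was narrow: the highest library had 4.55 times the CPM of the lowest, whereas Cd8a spanned 19.5 times. Summed macrophage and monocyte markers were 926, 355 and 752 CPM in Piezo Gel+US and 776, 896 and 492 CPM in Gel+US, with the lowest value in Piezo Gel+US replicate 2, as for Cd4. The highest libraries differed, Piezo Gel+US replicate 1 for the marker sum and Gel+US replicate 2 for Cd4. Marker by marker, however, 10 of 13 were highest in Gel+US replicate 2, as for Cd4. Only Gpnmb was highest in Piezo Gel+US replicate 1, at 302 CPM against 173 CPM in Gel+US replicate 2. The part of macrophages and monocytes in the Cd4 level was not tested.

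Cd8a, which in the rat is also found on NK cells, measured 10.2, 1.26 and 2.59 CPM in Piezo Gel+US, against 3.01, 17.6 and 0.902 CPM in Gel+US. Cd8b, which pairs with it on cytotoxic T cells, measured 2.88, 0.201 and 1.19 CPM in Piezo Gel+US and 1.35, 5.05 and 0.652 CPM in Gel+US. Both were highest in Gel+US replicate 2 and next highest in Piezo Gel+US replicate 1. Cd5, a brake on T cell receptor signals that some B cells share, measured 4.43, 0.956 and 0.828 CPM in Piezo Gel+US and 0.802, 7.28 and 0.0501 CPM in Gel+US. Cd6, its neighbour and relative, varied less, with 5.07, 1.96 and 4.29 CPM in Piezo Gel+US and 2.96, 9.27 and 1.90 CPM in Gel+US. The adhesion receptor Cd2 and the NK and T cell receptor Cd96 had 3 to 47 and 2 to 24 counts per library and were not tested, and both were highest in Gel+US replicate 2. Cd96 overlaps Zbed2 on the other strand, which had 0 or 1 count per library.

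The kinases and adaptors beneath the receptor were highest in the same library as the CD3 chains. Lck, the kinase bound to CD4 and CD8, measured 8.59, 4.68 and 4.04 CPM in Piezo Gel+US, against 5.26, 27.5 and 2.21 CPM in Gel+US. Lat, the membrane scaffold of the pathway, measured 3.95, 3.72 and 1.55 CPM in Piezo Gel+US and 2.00, 9.44 and 0.251 CPM in Gel+US. Gel+US replicate 2 exceeded every other library in both genes. Lcp2, which encodes SLP-76 and is used by myeloid cells and platelets too, measured 22.0, 6.34 and 14.2 CPM in Piezo Gel+US and 15.5, 24.8 and 7.77 CPM in Gel+US. In Lcp2 the gap between the top libraries was small, since Gel+US replicate 2 was 1.13 times the next, Piezo Gel+US replicate 1. Skap1, Sh2d1a, Ubash3a and Themis, which encode an integrin adaptor, the SLAM adaptor SAP, a brake on receptor signals and a thymocyte selection protein, ranged from 0 to 3.11 CPM, each with its highest value in Gel+US replicate 2. Themis had 0 counts in Piezo Gel+US replicate 2, which allows up to 3 counts, or 0.151 CPM.

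Costimulatory and checkpoint receptors tune the response, and most of them lay near the detection limit. Cd28, the main costimulatory receptor, measured 2.45, 0.855 and 2.38 CPM in Piezo Gel+US and 1.30, 3.28 and 0.200 CPM in Gel+US. Cd27, a costimulatory receptor of the TNF receptor family that memory B cells also carry, measured 2.08, 2.41 and 1.03 CPM in Piezo Gel+US and 1.20, 4.89 and 0.551 CPM in Gel+US. Lag3, an inhibitory receptor that microglia also express in rodents, measured 1.97, 1.01 and 0.362 CPM in Piezo Gel+US and 1.35, 3.33 and 0.601 CPM in Gel+US. The groups overlapped in each of these genes, and for Cd27 and Cd28 the Piezo Gel+US values lay within the range of the Gel+US values. The checkpoint genes Pdcd1, Ctla4 and Tigit had 0 to 23, 0 to 6 and 0 to 4 counts per library and were not tested. Tigit was highest in Piezo Gel+US replicate 2, with 4 counts. Icos, an inducible costimulator of helper T cells, had 2, 1 and 1 counts in Piezo Gel+US and 5, 25 and 1 counts in Gel+US and was not tested either.

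The transcription factors were split. Tbx21, which encodes T-bet, the factor of type 1 helper, cytotoxic and NK cells, measured 1.60, 1.01 and 0.569 CPM in Piezo Gel+US, against 1.10, 9.05 and 0.351 CPM in Gel+US. Its highest library, Gel+US replicate 2, was 5.65 times the next, the widest such gap among the 25 tested genes that were highest there. Eomes, its relative in memory and NK cells, had 13, 3 and 8 counts in Piezo Gel+US and 7, 60 and 1 counts in Gel+US and was not tested. Foxp3, the factor of regulatory T cells, did not follow them, with 1.71, 1.31 and 0.776 CPM in Piezo Gel+US and 0.902, 1.67 and 0.301 CPM in Gel+US. Gata3, the factor of type 2 helper cells and of some neurons, measured 1.65, 1.46 and 0.466 CPM in Piezo Gel+US and 1.50, 1.56 and 0.501 CPM in Gel+US. Foxp3 and Gata3 were the 2 tested genes highest in a library other than Gel+US replicate 2, and both were highest in Piezo Gel+US replicate 1. The margins were of few counts. Foxp3 had 32 counts there against 30 in Gel+US replicate 2, and Gata3 had 31 against 28. Tcf7, which encodes TCF-1 of naive and memory T cells and is also a Wnt effector in other cell types, measured 21.7, 16.8 and 12.7 CPM in Piezo Gel+US and 16.1, 30.2 and 4.61 CPM in Gel+US.

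Among the cytotoxic genes, Prf1 and Gzmk ran over the widest range of the 26 tested T and NK cell genes with a count in every library. Prf1, which encodes perforin, measured 7.26, 0.553 and 3.16 CPM in Piezo Gel+US, against 4.01, 24.8 and 0.150 CPM in Gel+US. Gzmk, granzyme K of memory CD8 T cells, measured 3.31, 0.101 and 2.69 CPM in Piezo Gel+US and 2.25, 17.5 and 0.301 CPM in Gel+US. Prf1 ran from 3 counts in Gel+US replicate 3 to 446 counts in Gel+US replicate 2. Nkg7, a granule protein of NK and cytotoxic T cells, measured 3.04, 2.21 and 2.43 CPM in Piezo Gel+US and 1.85, 13.6 and 0.200 CPM in Gel+US. Gzma, granzyme A, measured 1.12, 0.101 and 0.310 CPM in Piezo Gel+US and 0.802, 4.28 and 0.200 CPM in Gel+US. All 4 were highest in Gel+US replicate 2, by 3.41 to 5.29 times the next library. Ifng, the cytokine interferon gamma, had 2, 0 and 0 counts in Piezo Gel+US and 0, 6 and 0 counts in Gel+US, and a count of 0 allows up to 3 counts.

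Relative to the CD3 chains, the cytotoxic genes had overlapping ranges in the 2 groups, through Gel+US replicate 3 alone. The summed CPM of the 5 cytotoxic genes over that of the 4 CD3 chains was 1.20, 0.937 and 1.60 in Piezo Gel+US and 1.96, 2.10 and 1.21 in Gel+US. The 1.21 of Gel+US replicate 3 rests on 0 to 6 counts of each cytotoxic gene and 1 to 6 of each CD3 chain. The 1.96 and 2.10 of Gel+US replicates 1 and 2 lay above every Piezo Gel+US ratio. Foxp3 over Cd3e was lowest in Gel+US replicate 2, at 0.296, 0.839 and 0.273 in Piezo Gel+US and 0.383, 0.121 and 1.50 in Gel+US. The Gel+US replicate 3 ratio rests on 6 counts of Foxp3 and 4 of Cd3e. These ratios were not tested.

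**Figure D2:**
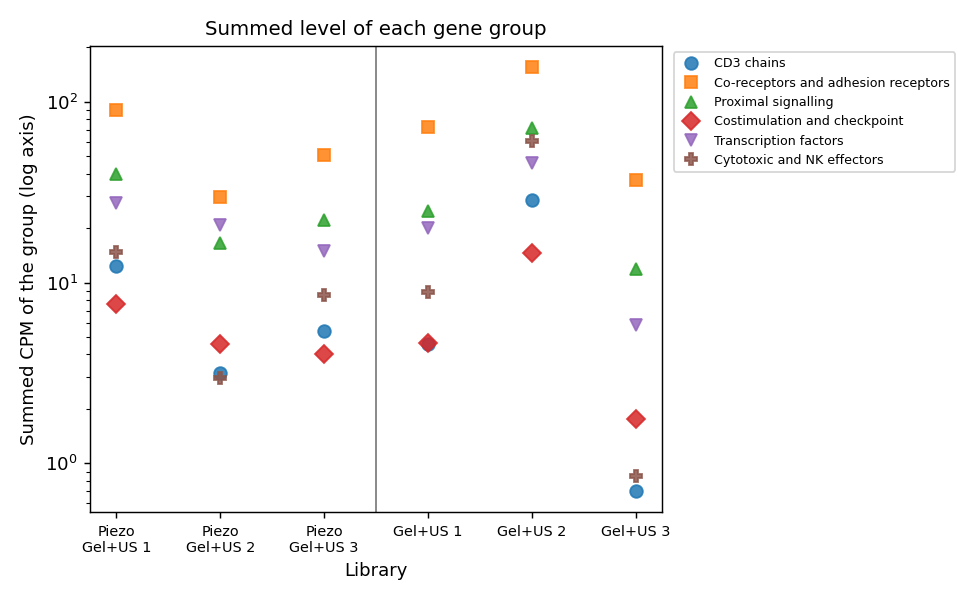
Summed CPM of each of the 6 gene groups (log axis) in each library, with Piezo Gel+US on the left of the line and Gel+US on the right. All 6 groups are highest in Gel+US replicate 2, and the CD3 sum there is 28.7 CPM against 0.702 CPM in Gel+US replicate 3.

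Rows with no gene symbol but with a T or NK cell protein in the table's description were read after the values of the 35 genes were known. The row described as the kinase ZAP-70 measured 4.54, 0.805 and 2.69 CPM in Piezo Gel+US, against 2.46, 13.8 and 1.25 CPM in Gel+US. The row described as CD94, the NK receptor encoded by Klrd1, measured 1.76, 0.855 and 0.983 CPM in Piezo Gel+US and 1.60, 10.8 and 0.752 CPM in Gel+US. Granzyme B had 11, 3 and 1 counts in Piezo Gel+US and 4, 38 and 1 counts in Gel+US. The 3 rows were highest in Gel+US replicate 2. The constant region of the receptor beta chain, by its match to the mouse beta-2 protein, measured 6.56, 2.16 and 2.43 CPM in Piezo Gel+US and 3.26, 16.8 and 0.100 CPM in Gel+US. Reads of the beta-1 and beta-2 constant regions, which are near copies, could be split between their rows. The row matched to an alpha chain measured 2.03, 0.805 and 1.50 CPM in Piezo Gel+US and 1.20, 6.66 and 0.702 CPM in Gel+US. The receptor chains thus had the same highest library as the CD3 chains.

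No T or NK cell gene differed between the groups beyond the spread of the replicates. By edgeR's quasi-likelihood test 0 of the 27 genes had an adjusted p below 0.05, where 0 of 17066 genes in all passed (0%), and the smallest adjusted p was 0.994. None of the 27 reached an unadjusted p below 0.05 either, against 2.1% of all tested genes (359), and DESeq2 called 0 of 23195 genes with 652 at an unadjusted p below 0.05, none of them among the 27. In no tested gene were the groups free of overlap, against 6.81% of all tested genes, 2.73% with Piezo Gel+US the lower. The log2 fold change of Piezo Gel+US over Gel+US was below 0 for 22 of the 27 genes (81.5%), against 52.9% of all tested genes, and its median was -0.66, against -0.021 over all tested genes. Every 95% interval of the 27 included 0. Cd3e averaged 3.39 ± 2.15 CPM in Piezo Gel+US and 5.42 ± 7.26 CPM in Gel+US (SD, n = 3 each), a log2 fold change of -0.68 with an interval of -3.57 to 2.22. Prf1 averaged 3.66 ± 3.38 CPM in Piezo Gel+US and 9.64 ± 13.2 CPM in Gel+US, a log2 fold change of -1.40 (-4.91 to 2.11). For both genes the SD of the Gel+US group exceeded its mean.

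With all 6 libraries, the most negative fold changes were in the cytotoxic group and its transcription factor. Gzma had a log2 fold change of -1.77 (95% interval -4.71 to 1.16), Tbx21 of -1.72 (-4.43 to 1.00) and Gzmk of -1.71 (-5.24 to 1.82). In the fit without Gel+US replicate 2, Gzma stood at 0.020, Tbx21 at 0.53 and Gzmk at 0.67. The CD3 chains lay between -1.07 (Cd3d) and -0.44 (Cd3g), the co-receptors and adhesion receptors between -0.72 (Cd8b) and -0.32 (Cd6), and the signalling genes between -1.12 (Themis) and 0.01 (Skap1). Lck stood at -1.01 (-3.14 to 1.11) and Nkg7 at -1.02 (-3.84 to 1.80). Cd4 had the narrowest interval of the 27, at -0.66 (-1.90 to 0.57). On the other side of 0 stood Foxp3, with 0.41 (-1.18 to 1.99), and Cd28, with 0.25 (-1.90 to 2.41). Tcf7 and Gata3 each had 0.01. By group the medians were -0.71 for the 4 CD3 chains, -0.61 for 5 tested co-receptors and adhesion receptors, -0.54 for 7 signalling genes, -0.26 for 3 costimulatory and checkpoint genes, 0.01 for 4 transcription factors and -1.56 for 4 cytotoxic genes.

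The direction rested on Gel+US replicate 2. Without that library 25 of the 27 genes had a log2 fold change above 0, against 50.9% of all tested genes, and the median was 0.72. Cd3e then stood at 1.40, Cd247 at 1.54, Cd5 at 2.27 and Prf1 at 0.82, while Cd4 and Themis stayed below 0 at -0.14 and -0.41. No gene passed in that fit, where edgeR gave the 27 an adjusted p of 0.742 or more. Without Gel+US replicate 3, all 27 genes were below 0 (median -1.08), against 51.8% of all tested genes, and again 0 were called. The median stood at -1.27 when Piezo Gel+US replicate 1 was left out and at -0.34 when Piezo Gel+US replicate 2 was left out.

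Libraries of equal replicate number were also set side by side. In the pair numbered 1, 26 of the 27 genes were higher in the Piezo Gel+US library, against 50.5% of all tested genes. In the pair numbered 2, 0 of the 27 were higher in Piezo Gel+US, against 48.2% of all tested genes. In the pair numbered 3, 23 of the 27 were higher in Piezo Gel+US, against 51.8%. The median log2 ratio of Piezo Gel+US over Gel+US, with 0.1 CPM added, was 0.84, -2.53 and 1.04 in the 3 pairs. With the replicate number as a block in edgeR, 14 of the 27 genes were below 0 (median -0.013), 0 were called, and the smallest adjusted p of the 27 was 0.901.

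**Figure D3:**
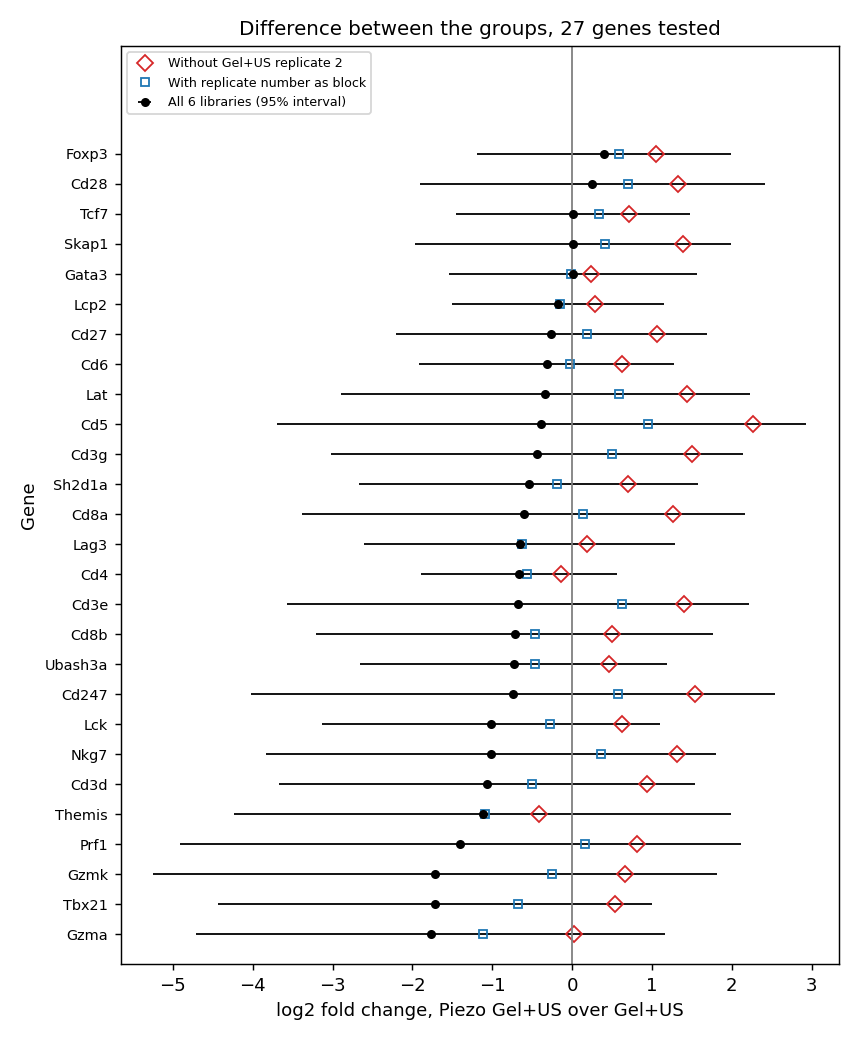
Log2 fold change of Piezo Gel+US over Gel+US for the 27 tested genes, with all 6 libraries (black points, bars are 95% intervals), without Gel+US replicate 2 (red diamonds) and with the replicate number as a block (blue squares). Every interval crosses 0, and the median of -0.66 with all libraries stands against 0.72 without Gel+US replicate 2.

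The wider T cell receptor pathway consists mostly of genes that other cells use too. Of 32 further pathway genes tested, 12 had a log2 fold change above 0 and 20 below, with a median of -0.11, and 0 were called by edgeR. Without Gel+US replicate 2 the median was 0.24. Among the 33 with a row, 17 were highest in Gel+US replicate 2. Prkcq, which encodes protein kinase C theta, measured 49.7, 132 and 57.7 CPM in Piezo Gel+US and 41.5, 42.2 and 39.1 CPM in Gel+US, without overlap between the groups (log2 fold change 0.97, 95% interval 0.06 to 1.87, edgeR adjusted p = 0.994). Prkcq had the lowest p of the 32 and was named for it, so that interval is not separate support. Of the 32 genes, 2 did not overlap between the groups, Prkcq and Bcl10, against 6.81% of all tested genes. The highest library of Prkcq, Piezo Gel+US replicate 2, also had the highest Schwann cell sum, whose part in the difference was not tested. Bcl10, an adaptor of NF-kB activation, had a log2 fold change of 0.42, Nfatc1, a calcium-driven transcription factor, of 0.60 (0.99 without Gel+US replicate 2) and Ubash3b, a phosphatase relative of Ubash3a, of -0.64.

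Other T and NK cell receptors and effectors were taken as a further list. Of 25 tested, 5 were above 0 and 20 below, with a median log2 fold change of -0.41 and 0 called, and 23 of the 30 with a row were highest in Gel+US replicate 2. Without that library the median was 0.80. Cxcr3, the chemokine receptor of type 1 T cells, measured 0.907, 0.352 and 0.673 CPM in Piezo Gel+US and 0.952, 4.39 and 0.501 CPM in Gel+US. Gimap4, a lymphocyte GTPase, measured 2.29, 1.06 and 0.983 CPM in Piezo Gel+US and 1.35, 8.28 and 0.301 CPM in Gel+US. Cd40lg, the helper signal to B cells, had a log2 fold change of -1.71, which was -0.44 without Gel+US replicate 2, and Bcl11b, a T cell factor also used by neurons, of -0.66. Of the ligands on partner cells, 3 of 14 were highest in Gel+US replicate 2, with a median log2 fold change of -0.24 over 12 tested genes (-0.035 without that library) and 0 called. Cd48, the rodent ligand of CD2, measured 32.4, 93.3 and 35.8 CPM in Piezo Gel+US and 28.7, 41.5 and 20.3 CPM in Gel+US. Cd80, a CD28 ligand, had a log2 fold change of -0.71, Cd274, the ligand of PD-1, of -0.41 and Nectin2, a TIGIT ligand, of 0.23.

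Markers of other cell types were set beside these genes. B cell markers summed to 74.2, 19.6 and 19.3 CPM in Piezo Gel+US and to 19.4, 81.5 and 9.72 CPM in Gel+US. The B cell sum had the same pair of high libraries as the T and NK cell genes, Gel+US replicate 2 and Piezo Gel+US replicate 1, and the same lowest library, Gel+US replicate 3. Of 12 B cell markers, 7 were highest in Gel+US replicate 2 and 4 in Piezo Gel+US replicate 1, and none was at 0 in any library. Neutrophil markers summed to 182, 102 and 246 CPM in Piezo Gel+US and 124, 315 and 9.57 CPM in Gel+US, and 6 of 9 were highest in Gel+US replicate 2, with Ltf at 0 in 4 libraries and Camp at 0 in Gel+US replicate 3. Mast cell and platelet markers summed to 145, 82.1 and 76.4 CPM in Piezo Gel+US and to 93.7, 181 and 24.6 CPM in Gel+US, the same pair of high libraries and the same lowest one, and 6 of 8 were highest in Gel+US replicate 2. Of the macrophage and monocyte markers, whose sums are given above, 10 of 13 were highest in that library. Microglia markers did not share this order, with 475, 224 and 379 CPM in Piezo Gel+US and 518, 502 and 315 CPM in Gel+US. Dendritic cell markers summed to 107, 67.9 and 85.5 CPM in Piezo Gel+US and 87.1, 80.0 and 113 CPM in Gel+US, highest in Gel+US replicate 3. Plasma cell markers summed to 89.8, 153 and 107 CPM in Piezo Gel+US and 88.1, 145 and 103 CPM in Gel+US, highest in Piezo Gel+US replicate 2. Of these 2 lists, 3 of 7 and 5 of 7 markers were highest in Gel+US replicate 2. Fibroblast markers summed to 1189, 6208 and 1475 CPM in Piezo Gel+US and 958, 6899 and 740 CPM in Gel+US, so that Piezo Gel+US replicate 2 was high in fibroblast markers and low in T and NK cell genes. The part of these cell types in the level of the T and NK cell genes was not tested.

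**Figure D4:**
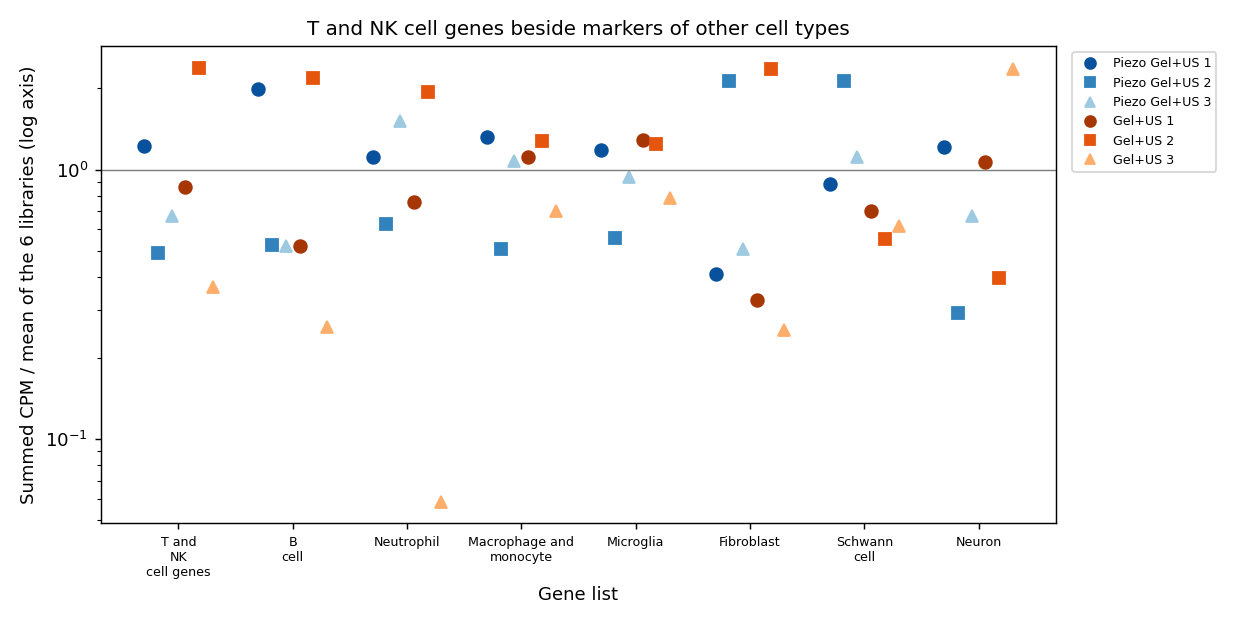
Summed CPM of each gene list in each library, divided by the list's mean of the 6 libraries (log axis), with Piezo Gel+US libraries in blue on the left of each list and Gel+US libraries in orange on the right. Gel+US replicate 2 is the highest library of the T and NK cell genes (376 CPM), B cell markers (81.5 CPM), neutrophil markers (315 CPM) and fibroblast markers (6899 CPM), and Gel+US replicate 3 is the lowest of those lists.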

How the data were processed

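RNA was measured in 6 libraries, assigned to groups by their labels, with the replicate number taken from the same label. The values are raw counts, deposited by the authors for each gene without normalisation, beside the gene length. Per the submitters' processing notes the tools included DESeq2 1.20.0, featureCounts 1.5.0-p3, fastp 0.19.7 and HISAT2 2.0.5, with no role stated for any. The genome build and whether counting used the strand are not given in the sources used here, although the libraries kept strand per the labels' protocols. The deposited counts were used as given. None of the table's gene IDs occurred in the RefSeq table of GRCr8 (0 matches), so genes were matched by symbol only; whether the reference behind the counts was that of the Norway rat or of another rat species is not settled here, and genes that differ from it in sequence may be counted low. The deposited gene length, a column of other values in bases, served for the levels per kilobase.

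Tests used edgeR 4.0.16 in R 4.3.3 with TMM factors, the default count filter (minimum count 10, minimum total 15), the robust quasi-likelihood test on group alone and Benjamini-Hochberg adjustment over the 17066 genes tested, called below 0.05. Alternatives were DESeq2 1.42.0, RLE factors, no count filter, CPM of at least 1 in 3 libraries, the replicate number as a block, and leaving out each library. The fit was tested on simulated data, with differences put only in genes of higher counts. That test does not show what the fit can detect in genes of low counts. Every gene of the list with a row is named. Of each further list up to 4 of lowest p are named. Genes and lists were chosen with earlier results of these data known. P-values measure the spread between libraries labelled as biological replicates. Counting limits cover counting error only.

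Deviations from the group means correlated at 0.253, 0.296 and 0.251 between libraries of equal number 1, 2 and 3. Of the 6 pairs of unequal number, Piezo Gel+US replicate 3 with Gel+US replicate 1 stood at 0.198 and the others below 0. All equal pairs were above 0.1, but so was that unequal pair, and no label says what a number shares. Deviations within a group sum to 0, so these correlations are not independent of each other. They do not settle whether the numbers are pairs. The main test therefore used group alone, with the replicate block as an alternative.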

Additional observations from a re-analysis of the deposited data

How the results depend on the processing

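With DESeq2, RLE factors, no count filter, the stricter filter, the replicate block and each library left out, 0 genes were called over all genes and 0 of the T and NK cell genes. DESeq2, RLE factors and no filter kept the direction of all 27 tested genes. The replicate block left 14 genes below 0, against 22 without it, and turned the sign of 10: it gave 0.62 for Cd3e, 0.50 for Cd3g, 0.57 for Cd247, 0.14 for Cd8a, 0.96 for Cd5, 0.59 for Lat, 0.18 for Cd27, 0.36 for Nkg7, 0.17 for Prf1 and -0.013 for Gata3. It changed no call. The filter of CPM of at least 1 in 3 libraries kept 21 of the 27 genes and gave -0.0030 for Skap1, -0.0052 for Gata3 and -0.0045 for Tcf7. With 1 library left out, 2 to 27 genes were below 0 and the median ran from -1.27 to 0.72, the high end being without Gel+US replicate 2. The sign turned in at least 1 of these fits for 25 of the 27 genes, with ranges of the log2 fold change of Cd3d -1.85 to 0.94, Cd3e -1.32 to 1.40, Cd3g -1.01 to 1.50, Cd247 -1.81 to 1.54, Cd8a -1.91 to 1.26, Cd8b -1.76 to 0.50, Cd5 -1.62 to 2.27, Cd6 -0.71 to 0.63, Lck -1.53 to 0.62, Lat -0.91 to 1.44, Lcp2 -0.66 to 0.28, Skap1 -0.53 to 1.39, Sh2d1a -1.03 to 0.70, Ubash3a -1.27 to 0.46, Cd27 -0.74 to 1.06, Cd28 -0.28 to 1.32, Lag3 -1.38 to 0.18, Foxp3 -0.035 to 1.06, Tbx21 -2.28 to 0.53, Gata3 -0.37 to 0.39, Tcf7 -0.45 to 0.72, Nkg7 -1.60 to 1.31, Gzma -3.08 to 0.020, Gzmk -2.29 to 0.67, Prf1 -2.39 to 0.82. Of the 27 genes, 26 had their highest value without Gel+US replicate 2. The median was -0.66 with all 27 and stood at -0.68 for the CD3 and signalling genes alone and at -0.70 without Cd4, Lat, Lcp2, Gata3 and Tcf7. Low counts kept 8 of the 35 genes from being tested.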

Other observations

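Rows described in the table as variable regions of T cell receptor chains were counted as a last look at the receptor. Of 58 such rows, 31 had a count, and 17 of these had counts in 1 library only. Their summed count was 59, 19 and 223 in Piezo Gel+US replicates 1 to 3 and 71, 87 and 31 in Gel+US replicates 1 to 3. Piezo Gel+US replicate 3 was thus the highest, although its CD3 sum was 5.38 CPM. In that library a single unnamed row, described by its match to a mouse alpha chain variable region, took 115 of the 223 counts (51.6%), and a second row of the same description took 61. Both had 0 counts in the other 5 libraries. The rows are predicted transcripts without a gene symbol, and variable regions are alike in sequence, so reads may be shared between them. What these counts come from was not tested.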
